A study of Mus musculus with 6 samples.

Results

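The 33 genes described here sense, signal or relieve stress of the endoplasmic reticulum (ER) as parts of the unfolded protein response, and their mRNA was compared between DIO mice given GSK-J4 and DIO mice given vehicle. They were taken as a named list in 5 branches, and every probe that carried the name of a listed gene was included. This gave 62 probes of the 56605 on the array, which holds 37074 gene names. Probes were used if either group had all 3 of its arrays well above background for them, which held for 56 of the 62 and for 34443 of all probes (kept probes). Each of the 33 genes had at least 1 kept probe. The 6 probes left out were 3 for Ern1 and 1 each for Atf6, Dnajb11 and P4hb.

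The ER folds secreted and membrane proteins, and when unfolded protein builds up in it, a set of membrane sensors signals to the nucleus. PERK, encoded by Eif2ak3, slows translation through eIF2α while the factor ATF4 is made and switches on genes of amino acid supply and of cell fate. IRE1, encoded by Ern1, splices the mRNA of Xbp1, and ATF6 is cut in the Golgi to free a transcription factor, after which chaperones and the proteins of ER-associated degradation (ERAD) are made. In the hypothalamus of obese rodents ER stress has been linked to leptin resistance.

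The animals were male C57BL/6J mice with diet-induced obesity (DIO mice), fed 60 kcal% fat from 6 weeks of age for 16 weeks. Of these, 3 mice were given GSK-J4, a small molecule inhibitor of the H3k27me3 demethylases Kdm6a and Kdm6b, at 30 mg/kg, and 3 were given vehicle. By the methods, GSK-J4 was injected intraperitoneally each day at ZT 2 h, which is 2 h after lights on. Each mouse gave 1 array, and the tissue, labelled hypothalamus, was taken at ZT 6 h, which is 6 h after lights on. The series description places it at day 4 after exposure, whereas the methods describe a course of 21 days. No lean or untreated mice were on the arrays, so both groups share the diet.

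All 3 vehicle arrays lay on slide 1 and all 3 GSK-J4 arrays on slide 2, each slide with its own scan, so slide and scan cannot be told apart from treatment. Vehicle arrays were brighter, with a 75th percentile of 787 to 916 signal units against 406 to 461 on the GSK-J4 arrays, and 62.8% to 63.6% against 57.7% to 58.7% of the probes were well above background. Of 10 genes listed as hypothalamic, 5 (Hcrt, Npy, Nr5a1, Oxt and Pomc) had a probe above background on all 6 arrays, and Avp, Pmch, Nkx2-1 and Sim1 had no kept probe. Neurod6, listed as a gene of other brain regions, was above background on all 6 arrays. The labelled tissue was thus not borne out by all of its defining genes. On the array Vehicle 1 all 14 kept probes of choroid plexus genes were the highest of the 6 arrays, with a mean log2 signal of 12.03 against 7.66 to 8.62 elsewhere. In bulk tissue, fewer cells of a type and less RNA per cell cannot be told apart. Kdm6a and Kdm6b, the proteins that GSK-J4 inhibits, were measured as mRNA by 3 kept probes and 1 kept probe. Log2 fold changes of Kdm6a were 0.05 (adjusted p = 0.66, limma) and −0.51 (adjusted p = 0.171) on the probes above background on all 6 arrays, and that of Kdm6b was 0.25 (adjusted p = 0.149). The third Kdm6a probe was well above background on the 3 vehicle arrays and on 0 GSK-J4 arrays, so it was kept through the vehicle group and its level under GSK-J4 is only a bound.

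Short DNA motifs tie many of these genes to a branch. The ER stress response element (ERSE, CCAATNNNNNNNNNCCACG) is bound by ATF6 together with NF-Y, ERSE-II (ATTGGNCCACG) is a variant of it, and the amino acid response element core (AARE, TGATGNAA) is bound by ATF4 and its partners. These letters were searched on both strands of RefSeq promoter windows (GRCm38.p6) that run from 250 bases before to 50 after the start of a gene, of which 32851 were at hand. Of the 33 genes, 29 had a window, and Atf6, Derl1, Hyou1 and Manf had none. ERSE was found for 9 of the 29 genes and in 0.119% of all windows, ERSE-II for 2 and in 0.0365%, and AARE for 4 and in 3.97%. The element TGACGTGG, bound by ATF6 and by spliced XBP1, was found for 0 of the 29 genes and in 0.676% of windows. ERSE and ERSE-II share the letters CCACG, and no member carried both.

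The 250 bases before the start of Hspa5 (plus strand, chr2:34771840-34772089) are shown because its protein BiP is the classical readout of the response. Those of Canx (minus strand, chr11:50325674-50325923) and Chac1 (plus strand, chr2:119350992-119351241) are shown because probes of both genes passed the test, in opposite directions. Herpud1 (plus strand, chr8:94386179-94386428) is shown because it carries both an ERSE-II and an AARE. Capitals mark the motif, ERSE in Hspa5 and Canx, AARE in Chac1, and AARE followed by ERSE-II in Herpud1, and the AARE stands on the opposite strand in both genes that show it.
Hspa5: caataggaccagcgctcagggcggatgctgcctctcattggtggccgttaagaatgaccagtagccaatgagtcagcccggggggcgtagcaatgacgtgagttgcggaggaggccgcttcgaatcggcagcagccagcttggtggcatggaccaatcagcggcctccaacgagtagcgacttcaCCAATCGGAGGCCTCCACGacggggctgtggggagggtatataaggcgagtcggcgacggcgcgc
Canx: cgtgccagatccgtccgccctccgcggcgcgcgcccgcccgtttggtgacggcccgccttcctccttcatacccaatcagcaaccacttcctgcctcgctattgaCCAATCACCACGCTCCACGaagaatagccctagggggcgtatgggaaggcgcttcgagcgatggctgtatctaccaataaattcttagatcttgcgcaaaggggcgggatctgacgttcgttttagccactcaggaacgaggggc
Chac1: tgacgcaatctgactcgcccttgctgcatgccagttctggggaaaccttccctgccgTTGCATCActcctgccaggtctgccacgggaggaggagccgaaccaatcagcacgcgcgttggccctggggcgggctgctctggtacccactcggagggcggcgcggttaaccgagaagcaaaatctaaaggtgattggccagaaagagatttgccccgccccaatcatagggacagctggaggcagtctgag
Herpud1: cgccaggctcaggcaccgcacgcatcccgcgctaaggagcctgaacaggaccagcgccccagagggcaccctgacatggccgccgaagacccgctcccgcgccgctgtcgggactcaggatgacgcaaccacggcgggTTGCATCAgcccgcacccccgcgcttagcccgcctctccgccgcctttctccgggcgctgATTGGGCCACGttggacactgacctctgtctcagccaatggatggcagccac
In Trib3 the AARE lies 14 to 21 bases after the start and in Asns 23 to 16 bases before it.

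Few of the probes passed the test. Of the 56, 3 were higher under GSK-J4 at an adjusted p of at most 0.05 (Trib3, Chac1 and Pdia4) and 1 was lower (Canx), which is 5.36% and 1.79% of them. Over all 34443 kept probes 8.38% were higher and 8.4% lower by the same limma test. The members' shares were below these in this fit, but rest on 3 and 1 probes and were not tested against them. They also changed with the processing, as given at the end. With the thresholds of the methods, at least 1.5-fold and an unadjusted p of at most 0.05, 2 probes were higher (Trib3 and 1 of Eif2ak3) and 1 lower (1 of Hyou1), where 4.8% and 7.85% of all probes were. At an unadjusted p of at most 0.05 alone, 10 probes were higher and 7 lower, or 17.9% and 12.5%, against 19.5% and 17% of all kept probes. The 3 values of each group did not overlap for 17 probes that were higher and 11 that were lower, or 30.4% and 19.6%, against 24.5% and 21.1% of all kept probes. For such a probe the exact permutation test of 3 arrays against 3 gives its smallest two-sided p, 0.1. Few calls held when an array was left out. Of the 4, 0 held without Vehicle 1, 2 or 3, where the lowest adjusted p of a member (limma) was 0.0625, 0.0698 and 0.0678. The loss was array-wide, from 5781 called probes to 10, 13 and 9 without Vehicle 1, 2 and 3. Without GSK-J4 1, 2 and 3, 1, 3 and 2 of the 4 held.

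The direction was mixed as well. Log2 fold changes were above 0 for 34 probes and below 0 for 22, with a median of 0.04 against 0.02 over all kept probes and a median SE of 0.10. They ran from −1.57 to 0.63, and the lowest, of Hsp90b1, rests on 1 array. By branch, the medians were 0.27 over the 11 probes of the PERK branch, −0.06 over 5 of IRE1, 0.18 over 2 of ATF6, 0.00 over 25 of chaperones and 0.10 over 13 of ERAD. No difference between branches was tested.

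**Figure D1:**
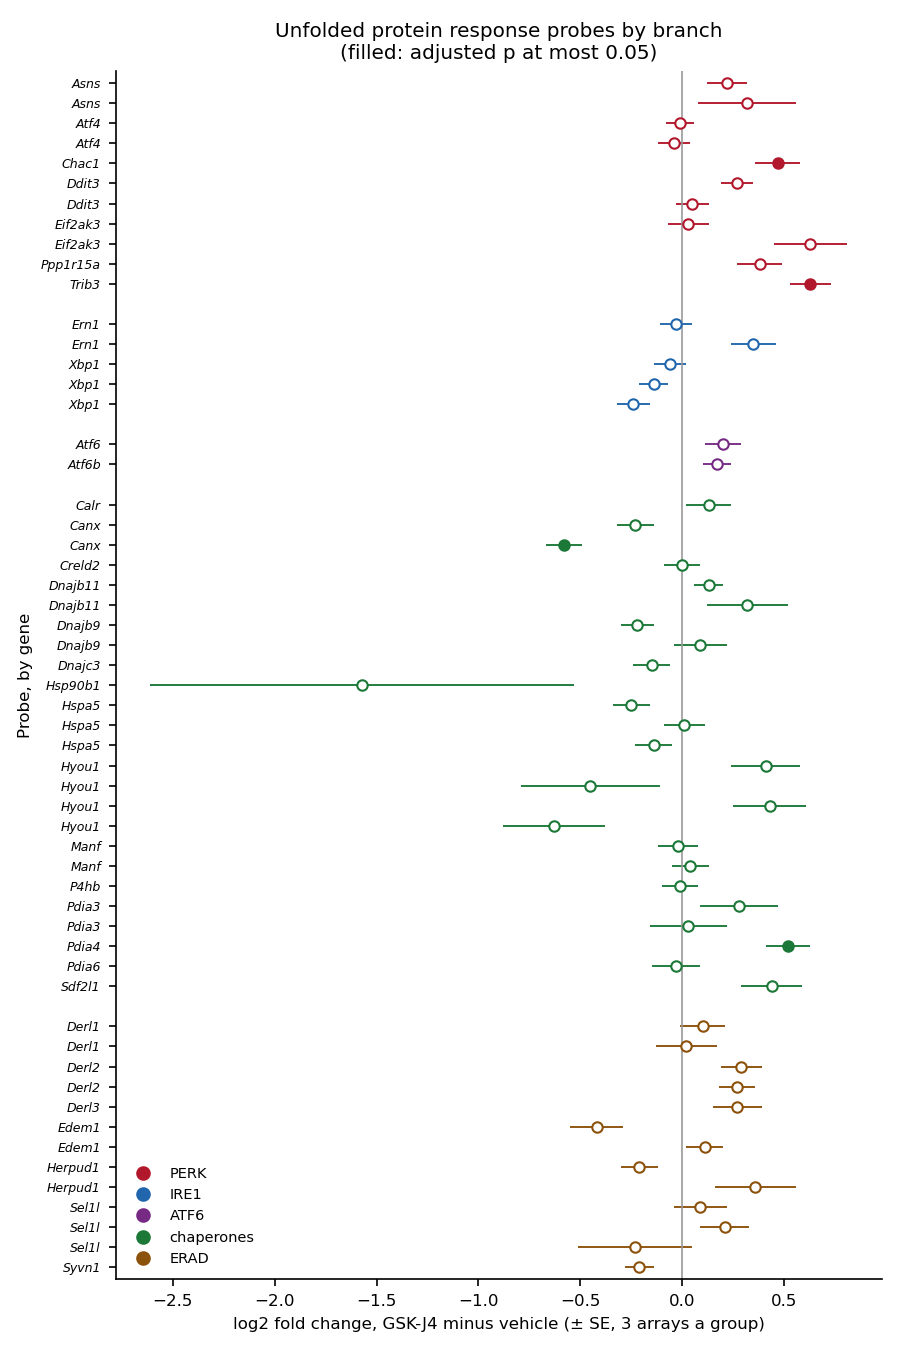
Log2 fold change (GSK-J4 minus vehicle) with its SE for each of the 56 kept probes, 1 line per probe under its gene name and coloured by branch, with 3 arrays a group. The 4 filled points passed the adjusted test: Trib3 at 0.63, Chac1 at 0.47 and Pdia4 at 0.52 above 0, and Canx at −0.58 below it, while the wide bar of Hsp90b1 at −1.57 comes from 1 low array.

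In the PERK branch, the genes that rose were the ATF4 targets Trib3 and Chac1, while the log2 fold changes of Atf4 were −0.01 and −0.04. Of its 11 probes, from 7 genes, 2 (18.2%) were higher and 0 lower, against 8.38% and 8.4% of all kept probes. Log2 fold changes were above 0 for 9. The groups did not overlap for 6 (54.5%), all of which were higher, against 24.5% apart and higher over all kept probes. These shares were not tested against each other. Trib3, a pseudokinase that ATF4 and CHOP induce and that restrains Akt, had log2 signals of 6.32, 6.20 and 6.49 on the vehicle arrays and 7.07, 6.89 and 6.95 on the GSK-J4 arrays. All 3 GSK-J4 values lay above all 3 vehicle values. The means were 6.34 ± 0.15 and 6.97 ± 0.09 (SD, n = 3), a 1.55-fold rise (log2 fold change 0.63, SE 0.10, adjusted p = 0.0218, limma). The probe lies at chr2:152163161-152163220 on the minus strand of mm9.

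Chac1, which degrades glutathione and is a target of ATF4, read 10.63, 10.43 and 10.54 in vehicle and 11.15, 10.86 and 10.99 in GSK-J4. Again the groups were apart, with the lowest GSK-J4 array above the highest vehicle array. Its means of 10.53 ± 0.10 and 11.00 ± 0.15 (SD, n = 3) gave a 1.38-fold rise (log2 fold change 0.47, SE 0.11, adjusted p = 0.038, limma), on a probe at chr2:119179990-119180049 on the plus strand of mm9.

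The brightest probe of Atf4, the factor whose translation PERK favours, read 15.43, 15.34 and 15.30 in vehicle and 15.38, 15.31 and 15.34 in GSK-J4. These ranges overlapped almost fully, with log2 fold changes of −0.01 on this probe (SE 0.07, adjusted p = 0.922, limma) and −0.04 on the other. The sign depends on how arrays are scaled: without quantile normalization, with each array scaled to its 75th percentile, the brightest probe gave 0.43 and passed (adjusted p = 0.0165). For Ddit3, which encodes the death-promoting factor CHOP, the brightest probe read 10.31, 10.27 and 10.18 in vehicle and 10.53, 10.42 and 10.61 in GSK-J4. The groups were apart, with GSK-J4 higher, but the log2 fold change of 0.27 (SE 0.08) missed the threshold (adjusted p = 0.0793, limma), and the other probe gave 0.05 with groups that overlapped. At the 75th percentile scaling the brightest Ddit3 probe passed at 0.34 (adjusted p = 0.0408), and after correction for GC content it gave 0.07.

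The sensor itself showed no called change. The brightest probe of Eif2ak3 read 9.30, 9.17 and 9.24 in vehicle and 9.39, 9.10 and 9.31 in GSK-J4, so the vehicle values lay within the range of the GSK-J4 values (log2 fold change 0.03, SE 0.10, adjusted p = 0.865, limma). A second, dim Eif2ak3 probe gave 0.63 (SE 0.18, adjusted p = 0.0654), with values of 4.54, 4.67 and 4.31 in vehicle and 5.10, 4.84 and 5.45 in GSK-J4. Here the groups did not overlap, and the call is made after GC correction (0.83, adjusted p = 0.0483). Ppp1r15a (GADD34), which restores translation by dephosphorylating eIF2α, read at most 10.88 on the vehicle arrays and at least 10.99 on the GSK-J4 arrays, so the groups were apart. Its log2 fold change of 0.38 (SE 0.11, adjusted p = 0.0629) was short of the threshold. It passed with normexp background correction, GC correction, the 75th percentile scaling and a trended robust variance. The probes of Asns, asparagine synthetase, gave 0.22 and 0.32, and neither was called (adjusted p = 0.154 and 0.37).

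**Figure D2:**
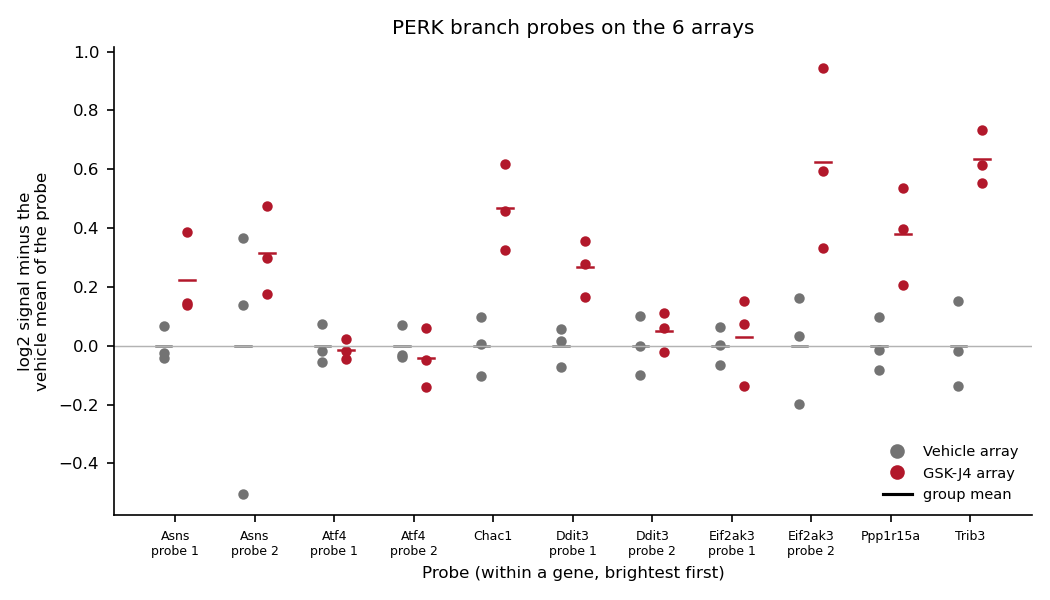
Log2 signal of each of the 11 PERK branch probes on the 6 arrays, relative to the mean of the 3 vehicle arrays of the probe, with grey points for vehicle, red points for GSK-J4 and a short line at each group mean. The GSK-J4 points of Trib3, Chac1, Ppp1r15a, the second Eif2ak3 probe, and the first probes of Ddit3 and Asns lie above all their vehicle points, while those of Atf4 lie among them.

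No probe of the IRE1 branch was called by the test as reported, and 4 of its 5 values were below 0. The brightest probe of Ern1 read 8.50, 8.41 and 8.59 in vehicle and 8.43, 8.42 and 8.56 in GSK-J4. The ranges lay on top of each other (log2 fold change −0.03, SE 0.08, adjusted p = 0.839, limma), while the other kept probe gave 0.35 with groups apart (adjusted p = 0.0808). Xbp1, the factor whose mRNA IRE1 splices, read 14.29, 14.16 and 14.27 in vehicle and 14.25, 14.16 and 14.13 in GSK-J4 on its brightest probe. These overlapped (log2 fold change −0.06, SE 0.08, adjusted p = 0.597), and the other probes gave −0.14 and −0.24 with groups apart, GSK-J4 lower, and adjusted p of 0.212 and 0.0973. The 3 Xbp1 probes start at bases 1119, 1220 and 2066 of the transcript, beyond the stretch that IRE1 removes, so spliced and unspliced mRNA were read together. At the 75th percentile scaling the brightest Xbp1 probe turned to 0.25 and after GC correction to 0.07, neither called, whereas with normexp background correction the probe at −0.24 was called lower (−0.29, adjusted p = 0.033).

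In the ATF6 branch, both genes were slightly higher without passing the test. Atf6, the sensor that is cut in the Golgi, read 10.12, 10.05 and 9.89 in vehicle and 10.14, 10.30 and 10.22 in GSK-J4. Atf6b, its paralog, read 9.43, 9.46 and 9.50 against 9.56, 9.66 and 9.69. For both genes every GSK-J4 array lay above every vehicle array, for Atf6 by a small margin (10.14 against 10.12). The log2 fold changes were 0.20 (SE 0.09, adjusted p = 0.185, limma) and 0.17 (SE 0.07, adjusted p = 0.143), and that of Atf6b turned to −0.04 after GC correction.

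The chaperones moved in both directions, with 13 probes above 0 and 12 below, and 1 called each way. That is 4% each, against 8.38% higher and 8.4% lower over all kept probes. Hspa5 (BiP), the main ER chaperone and the protein that holds the sensors inactive, read 14.88, 14.82 and 14.71 in vehicle and 14.65, 14.57 and 14.44 in GSK-J4 on its brightest probe. All GSK-J4 values were lower here (log2 fold change −0.25, SE 0.09), without a call (adjusted p = 0.102, limma), whereas the other probes gave 0.01 and −0.14 with groups that overlapped. At the 75th percentile scaling the brightest probe gave 0.14, above 0 and not called (adjusted p = 0.368).

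Pdia4 (ERp72), a disulfide isomerase, read 9.84, 9.64 and 9.93 in vehicle and 10.16, 10.42 and 10.37 in GSK-J4. Its groups were apart, and the means of 9.80 ± 0.15 and 10.32 ± 0.14 (SD, n = 3) gave a 1.43-fold rise (log2 fold change 0.52, SE 0.11, adjusted p = 0.0367, limma). The probe lies at chr6:47746516-47746575 on the minus strand of mm9. The other isomerases did not pass: Pdia3 gave 0.28 and 0.03, Pdia6 −0.03 and P4hb −0.01.

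Canx (calnexin), a lectin chaperone of the ER membrane, was the only member with a probe called lower by the test as reported. On that probe it read 14.53, 14.37 and 14.37 in vehicle and 13.82, 13.78 and 13.93 in GSK-J4. The groups were well apart, and the means of 14.42 ± 0.09 and 13.84 ± 0.08 (SD, n = 3) differed 1.49-fold (log2 fold change −0.58, SE 0.09, adjusted p = 0.0186, limma). Its other probe read 14.56, 14.40 and 14.55 in vehicle and 14.14, 14.32 and 14.36 in GSK-J4, also without overlap and lower in GSK-J4 (−0.23, SE 0.09, adjusted p = 0.138). The probes lie at chr11:50108537-50108596 and chr11:50108047-50108106 on the minus strand of mm9. The called probe kept its sign and lost its call at the 75th percentile scaling (−0.27, adjusted p = 0.0599) and after GC correction (−0.38, adjusted p = 0.0547), and the other probe turned to 0.11 at the former. Calreticulin (Calr), its soluble counterpart, gave 0.13.

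Hsp90b1 (GRP94), measured by 1 probe, read 14.76, 14.49 and 14.72 in vehicle and 14.24, 14.43 and 10.59 in GSK-J4. A single array, GSK-J4 3, lay far below the other 5, so the log2 fold change of −1.57 had an SE of 1.04 (adjusted p = 0.321, limma). The spot gave a signal of 1064 on that array and 16953 to 31838 on the others, and the SD of its pixels was 40.9% of their mean against 7.47% to 9.06%. Its surroundings were dim as well: of 60 kept spots within 5 rows and columns, 45 were more than 1 log2 unit below their mean over the other arrays on GSK-J4 3, and 0 to 5 on each of the other arrays. No other member probe had a median deviation as low on GSK-J4 3, where the next lowest, around a Manf probe, was −0.12 against −2.1 for Hsp90b1. Some others had dim spots nearby by the same count. There were 14 of 70 around that Manf probe, 13 of 70 around a Herpud1 probe and 9 of 63 around the brightest Atf4 probe. Without this array the log2 fold change was −0.32 (SE 0.12, adjusted p = 0.143).

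**Figure D3:**
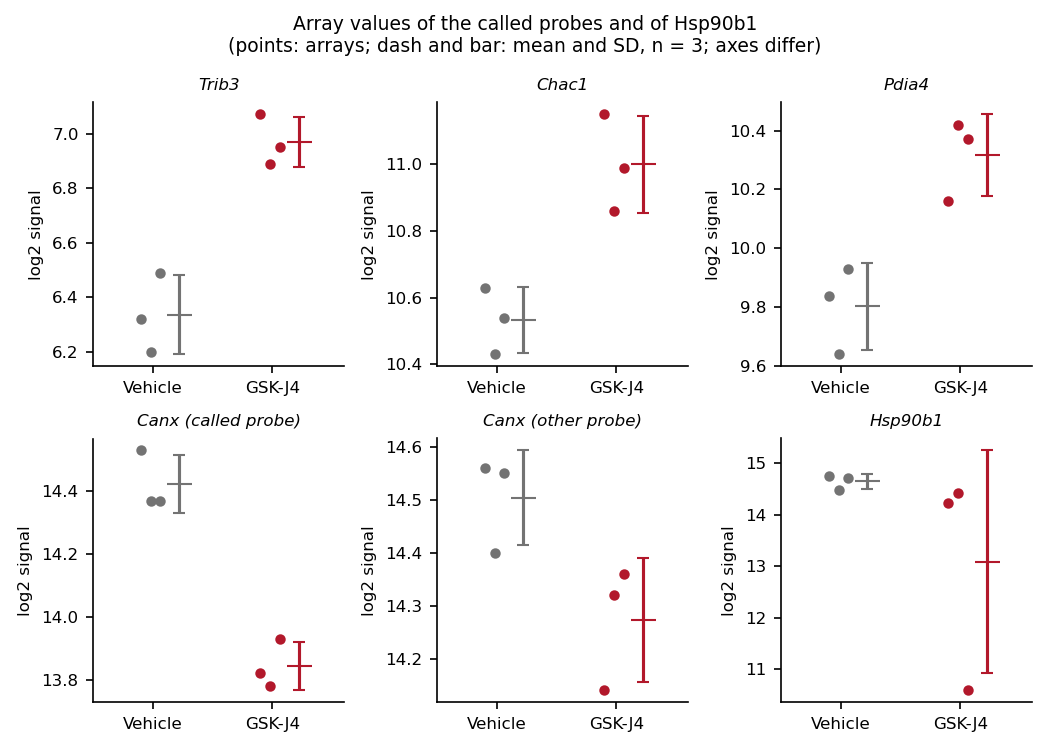
Log2 signal on each array for the 4 called probes, the second Canx probe and Hsp90b1, with points for arrays and a dash with a bar for the mean and SD of 3 arrays, on axes that differ between panels. The groups do not overlap in any panel, and in Hsp90b1 the array GSK-J4 3 at 10.59 stands apart from GSK-J4 values of 14.24 and 14.43.

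Of the remaining chaperones, none was called. Sdf2l1, a partner of BiP, gave 0.44 (SE 0.15, adjusted p = 0.0927, limma), and read 10.74, 10.44 and 10.58 in vehicle and 10.93, 10.84 and 11.29 in GSK-J4. The J-domain cochaperones Dnajb11, Dnajb9 and Dnajc3 lay between −0.22 and 0.32. The secreted proteins Manf and Creld2 lay between −0.02 and 0.04. Hyou1 (GRP170), which exchanges nucleotide on BiP, had 4 kept dim probes that gave 0.41, −0.45, 0.43 and −0.63. Its probes thus went both ways, across 1.07 log2 units, and the lowest was above background on only 2 of the 3 GSK-J4 arrays.

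Of the 13 ERAD probes 0 were called, where 8.38% of all kept probes were higher and 8.4% lower. Values lay above 0 for 9 and below for 4. Derl2, of the channel that returns proteins to the cytosol, was higher with groups apart on both probes, at 0.29 and 0.27 (adjusted p = 0.0935 and 0.0807, limma). Derl1 gave 0.10 and 0.02, and Derl3 gave 0.27. After GC correction the Derl2 probes gave 0.25 and 0.03 and Derl3 gave 0.04. At the 75th percentile scaling both Derl2 probes were called higher (0.43 and 0.32, adjusted p = 0.0266 and 0.0446, limma). Syvn1 (HRD1), the ubiquitin ligase of the complex, gave −0.21 with groups apart (adjusted p = 0.0923), and its partner Sel1l gave 0.09, 0.21 and −0.23. Probes went opposite ways for Herpud1, which assembles the complex (−0.21 and 0.36), and for Edem1, which trims glycans of misfolded proteins (−0.42 and 0.11). The groups were apart on both Herpud1 probes and on the Edem1 probe below 0.

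Members with a motif can be read beside all genes that carry it. The 4 genes with an AARE had 6 kept probes, of which 2 were higher and 0 lower, with a median of 0.34. Over the 366 genes of the array with an AARE and a kept probe, 58 of 658 probes were higher and 57 lower, with a median of 0.02. The 9 genes with an ERSE had 12 kept probes, of which 0 were higher and 1 (Canx) was lower, with a median of −0.14. Over all 20 genes of the array with that element and a kept probe, 1 of 29 probes was higher and 4 lower, with a median of −0.12, and 12 of these 29 probes are those of the members.

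Probes of a gene often differed in sign, though no gene had probes called in opposite directions. Of the 18 genes with more than 1 kept probe, 10 had all probes of the same sign and 8 had both signs, with a median range of 0.255 within a gene. Signs were counted about 0 whatever the SE, so that Manf (−0.02 and 0.04) is among the 8. The brightest probe of each of the 33 genes gave 3 called higher, 0 called lower, 19 values above 0 and 14 below, with a median of 0.09. That is 9.09% higher and 0% lower, against 8.38% and 8.4% of all kept probes. Fitted with 1 probe per gene name, 1990 of 22117 probes were higher and 1719 lower over the array.

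Fold changes moved with the GC content of the probe, in the members as over the array. Of the 16 member probes under 37% GC, 6 were above 0, of 19 between 37% and 44% it was 10, and of 21 over 44% it was 18. Over all kept probes the shares above 0 in these ranges were 32.8%, 49.1% and 67.9%. The members' medians were −0.03, 0.02 and 0.20, and became 0.18, 0.09 and 0.05 after the values of each array were corrected for GC content. The PERK branch was not split by these ranges. Its probes had a median GC content of 38.3% against 40% for all member probes, and their median log2 fold change of 0.27 became 0.32. The part of GC content in the members' values was not tested beyond this correction.

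**Figure D4:**
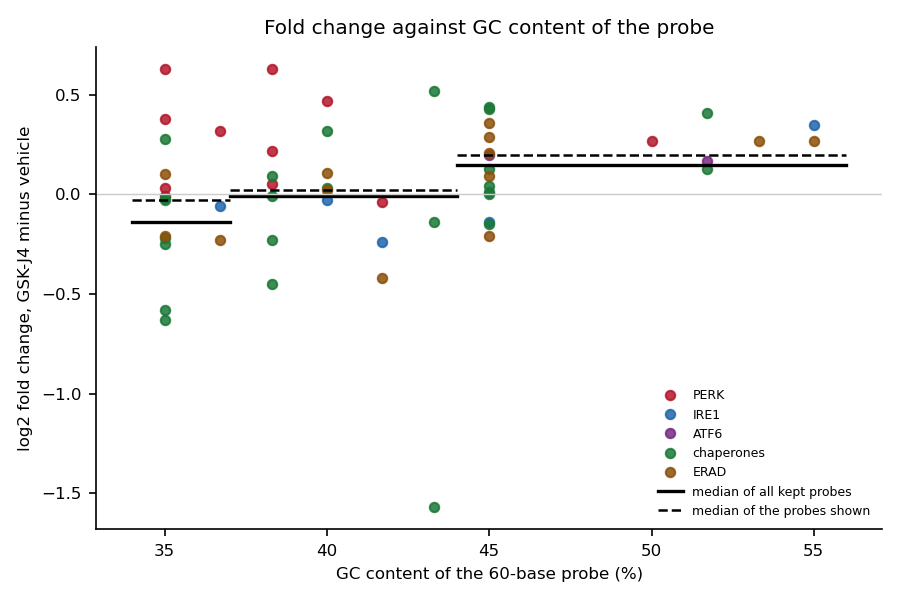
Log2 fold change of the 56 kept probes (vertical) against the GC content of the probe in percent (horizontal), coloured by branch, with the median of all 34443 kept probes as a solid line and that of the probes shown as a dashed line in 3 ranges. The solid line steps up from −0.14 through −0.01 to 0.15, and the dashed line from −0.03 through 0.02 to 0.20.

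Array Vehicle 1, which carried the choroid plexus transcripts, was above both other vehicle arrays for 34 of the 56 member probes and below both for 8. Without it the median over the members was 0.08 and that of the PERK branch 0.21, and 0 member probes were called. Over the whole array, 10 probes were called without Vehicle 1, 13 without Vehicle 2 and 9 without Vehicle 3. Markers of other cells moved in part. Of 9 kept probes of the neuronal genes Snap25, Syt1 and Rbfox3, 3 (of Snap25 and Syt1) were lower and 0 higher, against 8.4% and 8.38% of all kept probes. In all, 3 of the 9 lay above 0 and 6 below. The brightest probes of Syt1 and Rbfox3 gave 0.07 and −0.38 with groups that overlapped. That of Rbfox3 read 15.00, 14.89 and 14.69 in vehicle and 14.91, 14.92 and 13.61 in GSK-J4, so its value rests on GSK-J4 3. Another Rbfox3 probe gave 0.25 with groups apart, GSK-J4 higher. Of 7 hypothalamic probes 2 (Npy and Pomc) were higher, and of 4 microglial probes 0 passed, with a median of 0.34. Neurod6, the gene of other brain regions, had a log2 fold change of −0.47 and was called lower (12.41, 12.46 and 12.31 against 11.77, 12.05 and 11.96, adjusted p = 0.0336, limma). Their part in the values of the members was not tested.

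**Figure D5:**
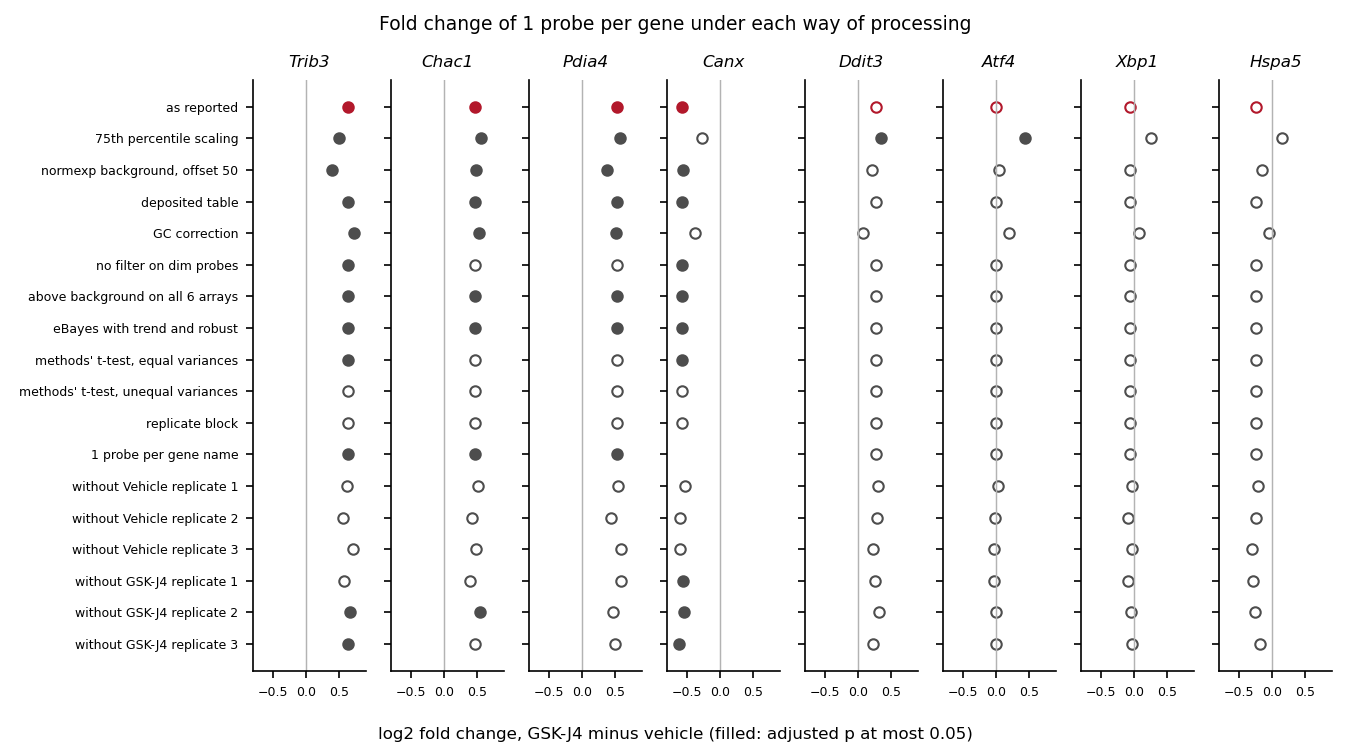
Log2 fold change of 1 probe for each of 8 genes (panels) under each way of processing (lines), in red as reported and in grey otherwise, filled where the adjusted p was at most 0.05. Trib3, Chac1 and Pdia4 stay above 0 and Canx below 0 on every line where they were measured (Canx is missing with 1 probe per gene name), while Atf4 runs from −0.04 to 0.43, Xbp1 from −0.10 to 0.25 and Hspa5 from −0.31 to 0.14.

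A wider list of 104 further genes of the same branches and of ER stress death signalling with kept probes was examined by counts. Of its 188 kept probes 13 (6.91%) were higher and 8 (4.26%) lower, with a median of 0.04. By branch, 5 of 41 PERK probes were higher and 2 lower, and of the IRE1 probes 3 of 28 were higher and 2 lower. It was 3 of 24 and 0 for ATF6, 0 of 37 and 1 for chaperones, 1 of 40 and 3 for ERAD, and 1 of 18 and 0 for death signalling. Over all kept probes 8.38% were higher and 8.4% lower, and neither the list nor its branches were tested against these shares. The largest called changes above background on all 6 arrays went both ways.

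A probe of Nupr1, a stress-induced nuclear protein, rose by 0.81 on the log2 scale (9.36, 9.61 and 9.88 against 10.26, 10.67 and 10.34, adjusted p = 0.0335, limma). A probe of Srprb, a subunit of the receptor that docks ribosomes on the ER, rose by 0.66 (adjusted p = 0.0328) and one of Nfya, a subunit of NF-Y, by 0.61 (adjusted p = 0.0219). Probes of the mitochondrial folate enzyme Mthfd2 and of the leucine sensor Sesn2, both targets of ATF4, rose by 0.56 each (adjusted p = 0.0237 and 0.0221). On these 5 probes the groups were apart, higher in GSK-J4. Each of these genes but Sesn2 had a second kept probe, none of them called: the groups were apart for Srprb (0.21) and Nfya (0.45) and overlapped for Mthfd2 (0.12) and Nupr1 (−0.06). Of the 3 kept probes of Eif2ak4 (GCN2), the kinase that phosphorylates eIF2α when amino acids are short, 1 fell by 1.01 (7.65, 7.69 and 7.64 against 6.52, 6.99 and 6.44, adjusted p = 0.0202). The brightest Eif2ak4 probe gave −0.11 (adjusted p = 0.48) and the dimmest 0.06 (adjusted p = 0.881), both with groups that overlapped. Edem3, a mannosidase of ERAD, fell on 2 probes, by 0.86 and 0.81 (adjusted p = 0.0312 and 0.012), and a probe of the J-domain protein Dnajc1 by 0.90 (adjusted p = 0.0367). On these 4 probes all values in GSK-J4 lay below those in vehicle, as they did on the other Dnajc1 probe (−0.23, adjusted p = 0.19), while the third Edem3 probe gave −0.40 with groups that overlapped (adjusted p = 0.273).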

How the data were processed

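RNA of 6 mice, 3 given GSK-J4 and 3 given vehicle, was measured in 1 colour on SurePrint G3 mouse arrays of Agilent. The authors deposited spot intensities, corrected for background within each array by Feature Extraction (10.7.1.1 per the file headers), and a table of log2 values that their methods describe as quantile normalized in GeneSpring. From the intensities, with control and outlier spots removed, log2 values were averaged by probe and quantile normalized across the 6 arrays with limma 3.58.1 (R 4.3.3). Over the kept member probes the result differs from the deposited log2 table by at most 0.00303. A probe had to be well above background on every array of either group. The groups were compared by lmFit and eBayes without covariates, two-sided, with Benjamini-Hochberg adjustment over all 34443 kept probes. Every fold change is a difference of log2 means, GSK-J4 minus vehicle. For probes of members, the 20 orders of 3 arrays against 3 were also enumerated.

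The members and lists were chosen with earlier results of these data known. Values by array are given for the brightest probe of the sensors and of Xbp1, Atf4, Ddit3 and Hspa5, for every called member probe and for genes whose probes are called apart. For the wider list they are given for at most 8 called genes with the largest change, and other probes were named after their values were seen. Replicate numbers did not pair the arrays, as deviations of arrays with the same number correlated at 0.00741, 0.0258 and 0.0817. The fit was tested on simulated data. Some of the listed marker genes are not reported here. No column of the deposited table was left unassigned. The number of arrays limits the precision. The files give probe positions on mm9, and promoters are RefSeq windows on GRCm38.p6. Alternatives were the 75th percentile scaling, normexp with an offset of 50, the deposited table, a GC correction (lowess, span 30%), no filter or a stricter one, other variance models, the methods' t-test, the replicate number as a block, 1 probe per gene name and leaving out each array.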

Additional observations from a re-analysis of the deposited data

How the results depend on the processing

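As reported, 3 member probes were higher and 1 lower, and 2 higher and 1 lower at the thresholds of the methods, with a median log2 fold change of 0.04. The deposited table gave the same counts. At the 75th percentile scaling 12 were higher and 0 lower, 0 were higher at the methods' thresholds, and the median was 0.19 against 0.05 over all probes, with 5036 probes higher and 3635 lower over the array. Under this scaling Atf4 (0.43), Hspa5 (0.14), Xbp1 (0.25) and the second Canx probe (0.11) turned above 0. With normexp 5 were higher and 3 lower, 0 and 0 at the methods' thresholds, and Atf4 gave 0.04. Over the array 3101 of 34443 probes were then higher and 3170 lower. After GC correction 5 were higher and 0 lower, 0 were lower at the methods' thresholds, and Atf4 (0.19), Xbp1 (0.07), Atf6b (−0.04) and Ern1 (0.04) reversed. Over the array 1871 of 34443 probes were then higher, a smaller share than 5 of the 56 members, and 1912 were lower. These shares were not tested against each other. With no filter 1 was higher, and 0 were lower at the methods' thresholds, while 1805 of 56605 probes were higher and 1976 lower over the array. Among probes above background on all 6 arrays 0 were lower at those thresholds. With a trended robust variance 2 were lower, where 3311 of 34443 were over the array. The methods' t-test with equal variances left 1 higher, and with unequal variances 0 higher and 0 lower, and both left 0 lower at the methods' thresholds. Over the array the former gave 1823 higher and 1474 lower, and the latter 34 higher and 25 lower. With the replicate block 0 were higher, 0 lower and 0 lower at those thresholds, 0 of all probes passed, and 12 member probes passed unadjusted (17 without the block). With 1 probe per gene name 0 were lower, where 1719 of 22117 were over the array, and 1 was higher and 0 lower at the methods' thresholds. Leaving out 1 array gave 0 to 3 higher and 0 to 2 lower, 1 to 2 higher and 0 to 3 lower at the methods' thresholds, a median of 0.03 to 0.08, and −0.04 to 0.03 for Atf4, −0.03 to 0.11 for Eif2ak3 and −0.07 to 0.02 for Ern1. Over the array 1 to 2061 probes were then higher and 8 to 2481 lower. Trib3, Chac1, Pdia4 and the called Canx probe kept their sign under every alternative that measured them. Trib3, Chac1 and Pdia4 passed under 11, 8 and 7 of 17 alternatives, and the called Canx probe under 9 of 16. The causes were not tested. Fewer probes were well above background on the GSK-J4 arrays (57.7% to 58.7%, against 62.8% to 63.6% on the vehicle arrays).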
